A study of Rattus norvegicus with 16 samples.

Results

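The cytosolic ribosomal protein genes encode the protein parts of the ribosome that translates messenger RNA in the cytoplasm. They were described here in sorted cells of the rat carotid body, a small chemoreceptor organ in the neck that senses oxygen in arterial blood. Members were the genes whose array symbol begins with Rpl or Rps followed by a number, or with Rplp0 to Rplp2, plus Rpsa, and which a probe of that gene alone measured. Symbols with ps after a hyphen, forms with an l after the number, the Rps6 kinase genes and Rps19bp1, which encodes a binding partner and no subunit, were left out. The rule gave 56 genes of the 18166 genes with a single-gene probe, 37 of the large subunit and 19 of the small subunit. The rule uses symbols and no measured difference. Where a gene had several probes, that of highest mean signal across the 16 arrays stood for it.

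The cells came from Wistar rats of 9 to 11 weeks, and 4 groups of 4 arrays each were compared. Hypoxic neuroblasts and hypoxic glomus cells came from rats kept for 3 days in hypoxic chambers, and normoxic neuroblasts and normoxic glomus cells came from rats in ambient air. Neuroblasts, immature cells of the glomus lineage, were sorted as positive for HNK-1, a sugar epitope of neural cells. Glomus cells, the chemoreceptor cells that store catecholamines, were taken as the HNK-1 negative cells, so that gate could hold any other cell without the epitope. Both carotid bodies were mixed, and nothing in the labels ties an array to its own animals, so p-values measure only the spread between these samples. All groups share strain, age range, dispersal with enzymes and sorting.

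The ribosome is built in the nucleolus from ribosomal RNA and a single copy of most of these proteins, so their genes are usually active together. In vertebrates most of their messenger RNAs begin with a C and a run of pyrimidines, the terminal oligopyrimidine (TOP) tract. Through that tract the kinase mTOR and its partner LARP1 control how well they are translated. Hypoxia is known to lower protein synthesis in many cell types, through mTOR and through phosphorylation of an initiation factor. Arrays of this kind measure the amount of RNA and not its translation.

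Promoters in RefSeq for the rat assembly GRCr8 matched 46 of the 56 genes. The windows below run from 25 bases before the annotated start through its first 15 bases, 5′ to 3′ on the gene's strand. They are shown because the start of the transcript carries the tract that sets this gene family apart. Capitals mark a pyrimidine run that opens with C at the annotated start and goes on for at least 4 further bases. A window with no capitals has no run of that length there.
Rps15, chr7:10068101-10068140, minus strand: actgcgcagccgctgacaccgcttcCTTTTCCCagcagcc
Rpl10a, chr20:6390508-6390547, plus strand: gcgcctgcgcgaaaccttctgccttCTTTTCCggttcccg
Rpl39, chrX:121195882-121195921, minus strand: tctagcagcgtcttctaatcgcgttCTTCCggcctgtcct
Rps14, chr18:56498235-56498274, plus strand: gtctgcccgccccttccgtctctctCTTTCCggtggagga
Rps16, chr1:92770633-92770672, plus strand: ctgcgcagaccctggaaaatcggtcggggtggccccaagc
Rplp2, chr1:205975896-205975935, plus strand: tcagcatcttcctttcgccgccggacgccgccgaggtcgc
Rpl4, chr8:73566452-73566491, plus strand: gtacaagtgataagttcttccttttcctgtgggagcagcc
Rps15, Rpl10a and Rpl39 are among the genes with the largest rises in hypoxia, Rps14 has a tract and passed the test in neither population, and Rpl4 fell. Rps16 and Rplp2 have no run at the annotated start, and an annotated start can lie some bases from the true one. In the window of Rpl4 pyrimidines run across the annotated start and end too soon after it to be marked.

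A C at the start followed by 4 bases that are each C or T occurred in 16 of the 46 promoters, or 34.8%, against 2.63% of the 27457 promoters in the table. With the first C allowed within 5 bases of the start, the shares were 56.5% of the ribosomal protein genes and 17.0% of all promoters. The letters CTTTCC, searched on both strands from 100 bases before to 50 bases after the start, were found in 41.3% of these promoters and 13.1% of all. TATAAA, searched in the same window on both strands, was found in 8.7% and 7.3%. CTTTCC can overlap the pyrimidine run, as in the window of Rps14.

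All values are the authors' deposited signals on a log2 scale, so a difference of 1 is a fold of 2, and no probe's level is set against another's. Array medians over all 30429 probes were 4.71 to 4.94 in hypoxic neuroblasts and 4.40 to 4.61 in normoxic neuroblasts. They were 4.71 to 4.74 in hypoxic glomus cells and 4.42 to 4.64 in normoxic glomus cells. One array, hypoxic neuroblast replicate 1, correlated less with its own group (0.914 on average over all probes) than any other, the rest being at 0.949 or more. In it, 11 of the 56 genes lay more than 1 log2 unit below the mean of the other 3 hypoxic neuroblast arrays and 0 lay more than 1 above. Of the marker genes of the sort, Tubb2b, a tubulin of immature neurons, averaged 6.44 in hypoxic and 7.51 in normoxic neuroblasts, and 5.17 in hypoxic and 5.33 in normoxic glomus cells. Stmn2, a microtubule regulator of neurons, averaged 9.94 in hypoxic and 11.00 in normoxic neuroblasts, and 9.17 in hypoxic and 9.48 in normoxic glomus cells. Both fell in hypoxic neuroblasts (limma adjusted p = 0.0124 and 0.000778), as did B3gat1, which makes the HNK-1 epitope, by 0.86 on the log2 scale (limma adjusted p = 0.0346). Th, which makes the precursor of dopamine, was high in every group, with means of 11.13 in hypoxic and 12.29 in normoxic neuroblasts and of 12.11 in hypoxic and 12.62 in normoxic glomus cells. In all, of 10 measured glomus cell and neuroblast markers 2 rose and 6 fell in neuroblasts and 1 rose and 3 fell in glomus cells, and Ddc and Epas1 were among the falls in both. The part of these marker changes in the ribosomal protein results was not tested. Dates of array processing are not in the labels, and any batch among them cannot be told apart from oxygen.

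The hypoxia difference was positive for 47 of the 56 ribosomal protein genes in neuroblasts and for 49 in glomus cells. The median difference over all probes was itself positive, at 0.25 in neuroblasts and 0.17 in glomus cells, so most probes were positive too. In neuroblasts 26 of the 56 genes rose and 3 fell, at an adjusted p under 0.05 by limma over all probes, where 18.4% of all probes rose and 13.7% fell. In glomus cells 23 rose and 1 fell, where 9.37% of all probes rose and 9.50% fell. Between neuroblasts and glomus cells 0 of the 56 passed the test by limma in either oxygen condition. Over all probes 1.82% did in normoxia and 0.283% in hypoxia. Of the 56, 0 had an unadjusted p under 0.05, and the share of all probes at that threshold was not counted. In bulk samples of sorted cells a change in the mix of cells and a change in RNA per cell cannot be told apart.

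**Figure D1:**
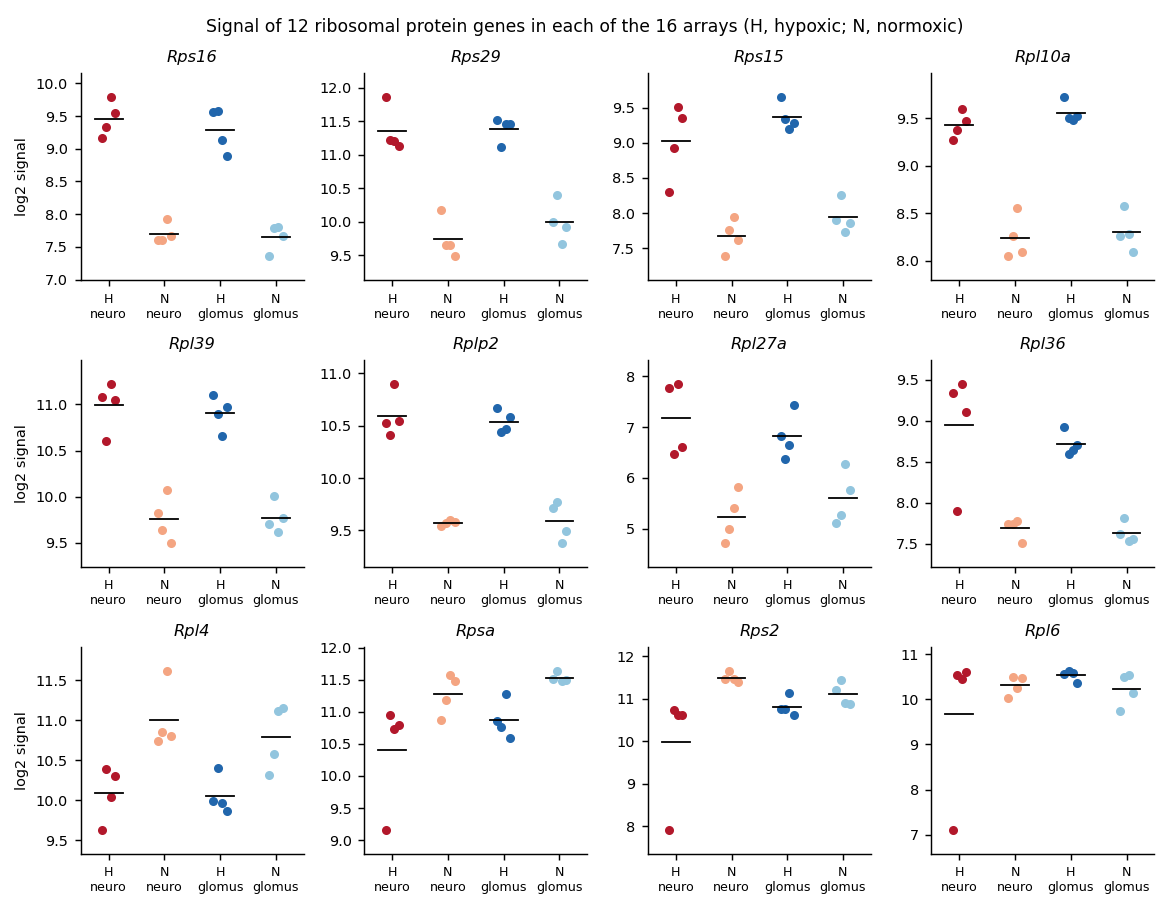
Log2 signal of 12 ribosomal protein genes in each of the 16 arrays. Each point is 1 array, the bars are means of 4 arrays, and groups run from hypoxic neuroblasts at the left of each panel to normoxic glomus cells at the right. The first 8 panels show genes that rose in both populations. The last 4 show Rpl4, Rpsa, Rps2 and Rpl6, where hypoxic neuroblast replicate 1 is the lowest of its group, at 7.11 for Rpl6.

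The comparison of hypoxic with normoxic neuroblasts asks what 3 days of low oxygen do to these messenger RNAs in the precursor-like cells. The 26 genes that rose are 46.4% of the members, and the 3 that fell are 5.36%. Among the 1761 genes with a mean signal over 8, a level that 43 of the 56 members reach, 441 rose and 645 fell, and among those 43 members 21 rose and 3 fell. The median difference of the members was 0.42, beside 0.25 for all probes and -0.24 for the genes with a mean over 8. By subunit, 16 of 37 large-subunit genes rose and 1 fell, and 10 of 19 small-subunit genes rose and 2 fell. All 4 hypoxic values lay above all 4 normoxic values in 25 members and below them in 3, where 16.3% and 11.6% of all probes did so.

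Among the small-subunit genes, Rps16 (probe 17614858), whose protein reaches the site where transfer RNA is held, was at 9.16, 9.34, 9.79 and 9.55 in hypoxic neuroblasts. In normoxic neuroblasts it was at 7.61, 7.60, 7.92 and 7.66. The groups lie more than 1 unit apart with no overlap, and the difference was 1.76 ± 0.19 (standard error), a fold of 3.39 (adjusted p = 5.12e-06, limma, n = 4 and 4). Rps29, which encodes a zinc-binding protein of the subunit's head, was at 11.86, 11.22, 11.21 and 11.13 in hypoxic neuroblasts and at 10.17, 9.66, 9.66 and 9.49 in normoxic neuroblasts. Replicate 1 was the highest array of both groups, and the groups do not overlap (1.61 ± 0.21, limma adjusted p = 2.3e-05). Rps15, a protein near the decoding site, was at 8.30, 8.93, 9.51 and 9.35 in hypoxic neuroblasts and at 7.39, 7.76, 7.95 and 7.62 in normoxic neuroblasts. Here replicate 1 was the lowest hypoxic array, and still above every normoxic one (1.34 ± 0.23, limma adjusted p = 0.000306).

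The gene annotated as Rps4y2, which GRCr8 places on chromosome 4, was at 7.13, 6.46, 5.84 and 6.11 in hypoxic neuroblasts and at 4.77, 5.50, 4.67 and 4.33 in normoxic neuroblasts. Its groups do not overlap, and it rose by 1.57 ± 0.34 (limma adjusted p = 0.00204). Rps27, a zinc-finger protein of the subunit, rose by 0.92 ± 0.18 on a dim probe, with means of 3.04 ± 0.34 in hypoxic and 2.12 ± 0.17 in normoxic neuroblasts (SD, n = 4 each). Rps9 rose by 0.82 ± 0.24, also on a dim probe, with a mean of 3.72 over the 16 arrays. The other small-subunit rises were Rps28, Rps20, Rps13 and Rps3, between 0.42 and 0.69. Rps3, at the entry of the messenger RNA channel, was the weakest of them in its test, with 0.42 ± 0.16 (limma adjusted p = 0.0474), and an overlap between its groups. Its call was lost in 13 of the 16 fits that left out 1 array, and with the neuroblast arrays alone (limma adjusted p = 0.123).

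Of the large subunit, Rpl27a was at 7.78, 6.48, 7.85 and 6.61 in hypoxic neuroblasts and at 4.72, 4.99, 5.41 and 5.82 in normoxic neuroblasts. It had the largest rise of the 56 genes in this population, 1.94 ± 0.35 (limma adjusted p = 0.000511), with a wide scatter among the hypoxic arrays. Rpl39, a short protein that lines the tunnel through which the new protein leaves, was at 11.08, 10.60, 11.22 and 11.05 in hypoxic neuroblasts and at 9.82, 9.64, 10.07 and 9.50 in normoxic neuroblasts. Its groups do not overlap (1.23 ± 0.18, limma adjusted p = 6.54e-05). Rpl10a, the protein of the mobile stalk where spent transfer RNA leaves, was at 9.27, 9.37, 9.60 and 9.47 in hypoxic neuroblasts and at 8.05, 8.26, 8.56 and 8.09 in normoxic neuroblasts. Its arrays were tight in both groups (1.19 ± 0.16, limma adjusted p = 3.54e-05).

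Rplp2 (probe 17622272), an acidic protein of the stalk that recruits elongation factors, was at 10.53, 10.41, 10.90 and 10.55 in hypoxic neuroblasts and at 9.54, 9.57, 9.60 and 9.58 in normoxic neuroblasts. The 4 normoxic arrays lie close together, with an SD of 0.03, and below every hypoxic one (1.02 ± 0.15, fold 2.03, limma adjusted p = 7.18e-05). Rplp0, which anchors that stalk, did not pass the test (0.10 ± 0.23, limma adjusted p = 0.746, 95% interval -0.38 to 0.58). Rpl36 was at 9.34, 7.90, 9.45 and 9.11 in hypoxic neuroblasts and at 7.74, 7.74, 7.78 and 7.51 in normoxic neuroblasts, a rise of 1.26 ± 0.25. Rpl13 rose by 1.01 ± 0.18. Rpl29, a lysine-rich protein, rose by 1.05 ± 0.29 (limma adjusted p = 0.0126) with an overlap between its groups, and did not pass with the compared arrays alone (limma adjusted p = 0.0575) or with each array centred on its median (0.77, limma adjusted p = 0.095). The remaining large-subunit rises were Rpl41, Rpl26, Rpl23a, Rpl7, Rpl34, Rpl18, Rpl17, Rpl35a and Rpl27, between 0.37 and 0.80. Of these, the Rpl26 probe was dim, with a mean of 4.52 over the 16 arrays.

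The 3 genes that fell in neuroblasts were Rps2, Rpl4 and Rpsa. Rpl4, part of the wall of the exit tunnel, was at 9.63, 10.39, 10.04 and 10.30 in hypoxic neuroblasts and at 10.74, 10.86, 11.62 and 10.80 in normoxic neuroblasts. Its groups do not overlap, and it fell by 0.92 on the log2 scale (limma adjusted p = 0.00919). Rps2, a protein beside the messenger RNA entry, was at 7.92, 10.74, 10.63 and 10.61 in hypoxic neuroblasts and at 11.46, 11.66, 11.47 and 11.40 in normoxic neuroblasts. Replicate 1 lies far below the other hypoxic arrays, which are themselves all below the normoxic ones. The difference was -1.52 ± 0.43 (limma adjusted p = 0.014) with that array and -0.84 ± 0.17 (limma adjusted p = 0.00153) without it. Fitted with the 8 neuroblast arrays alone, the fall of Rps2 did not pass (limma adjusted p = 0.0687).

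Rpsa, whose protein is also known as a laminin receptor, was at 9.16, 10.95, 10.74 and 10.79 in hypoxic neuroblasts and at 10.88, 11.18, 11.58 and 11.48 in normoxic neuroblasts. Replicate 1 is again the lowest, and 1 normoxic array lies below 1 hypoxic array. Its difference was -0.87 ± 0.30 (limma adjusted p = 0.0375), and -0.45 ± 0.19 (limma adjusted p = 0.0878) without replicate 1. The call of Rpsa was also lost without normoxic neuroblast replicate 2, 3 or 4, with the neuroblast arrays alone (limma adjusted p = 0.115) and with array weights (limma adjusted p = 0.0592). Rpl6 shows the same array most clearly, at 7.11, 10.53, 10.45 and 10.60 in hypoxic neuroblasts and at 10.03, 10.49, 10.24 and 10.46 in normoxic neuroblasts. Its difference, -0.63 ± 0.53, did not pass the test, and was 0.22 ± 0.19 without replicate 1. Rps14 had a difference of -0.80 ± 0.30 that did not pass (limma adjusted p = 0.0507), and -0.34 ± 0.13 without that array.

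Without hypoxic neuroblast replicate 1, 26 of the 56 genes rose and 2 fell in neuroblasts, with a median of 0.43, where 14.7% of all probes rose and 11.9% fell. They were not the same 26. Rpl7, Rpl17, Rpl26 and Rpl35a no longer passed (limma adjusted p = 0.0542, 0.0704, 0.103 and 0.0514). Rpl15, Rpl19, Rpl21 and Rps19 passed as rises in their place (limma adjusted p = 0.00227, 0.0112, 0.0487 and 0.00295). Rps16 then rose by 1.86 ± 0.19 and Rps15 by 1.58 ± 0.19. Leaving out any other array gave 18 to 25 rises, where 12.6% to 21.5% of all probes rose. Without hypoxic neuroblast replicate 4 the falls numbered 5, where 14.1% of all probes fell.

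**Figure D2:**
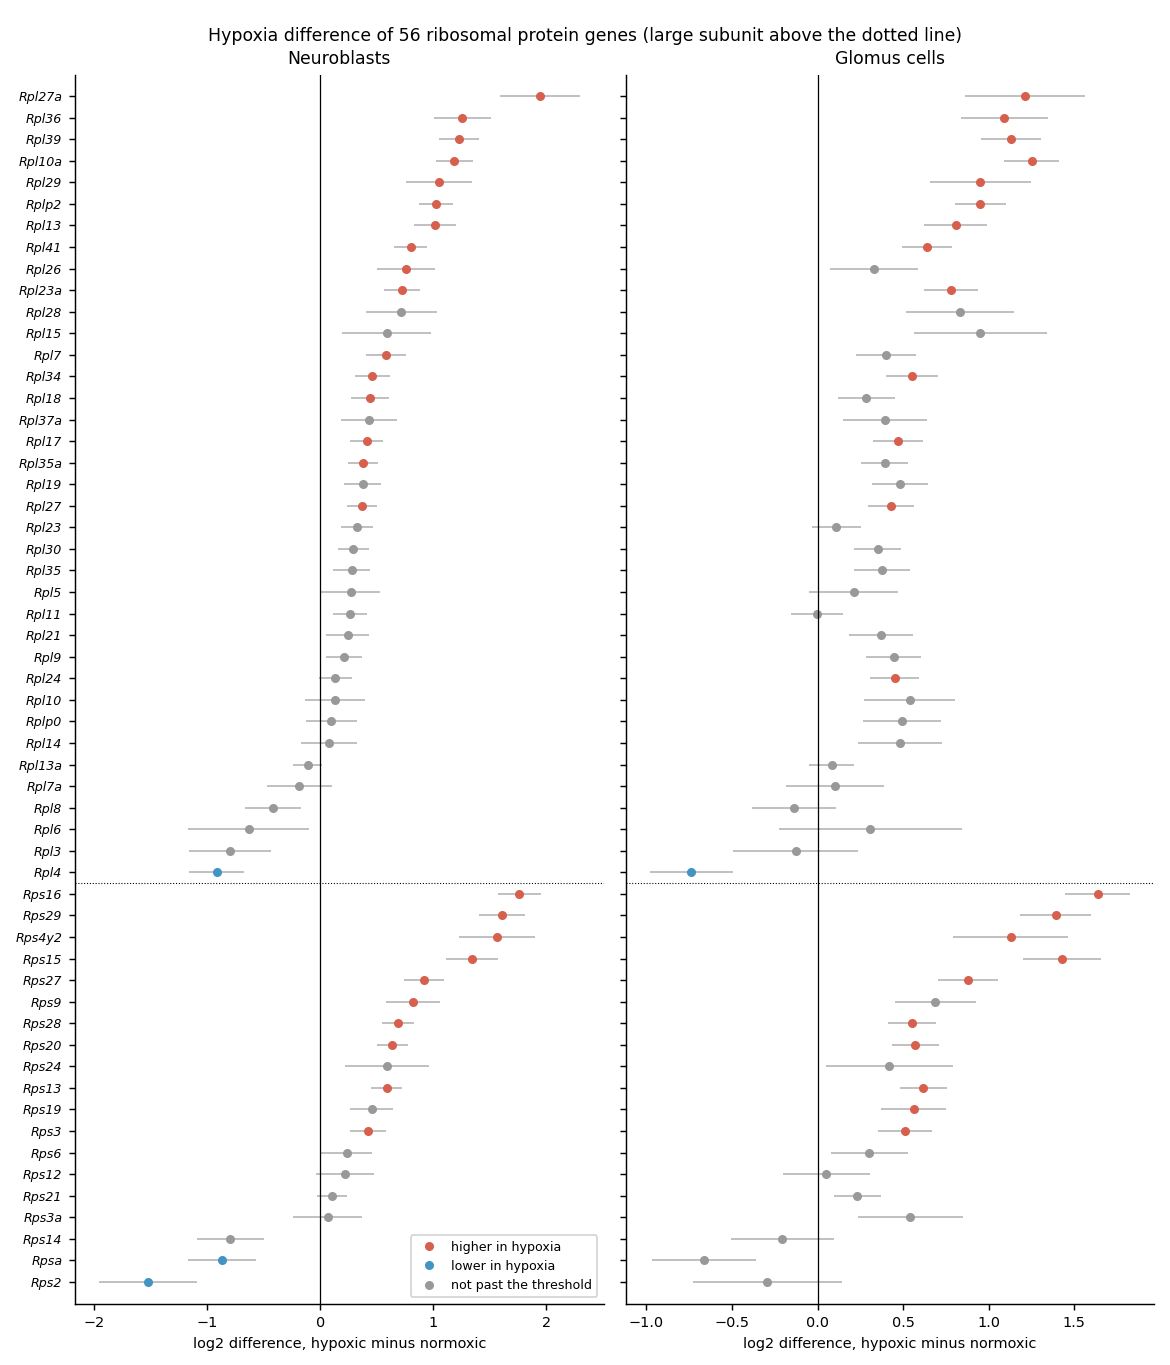
Difference in log2 signal, hypoxic minus normoxic, of each of the 56 genes in neuroblasts (left) and glomus cells (right). Points are fitted differences, bars are ± 1 standard error, and colours give the call at an adjusted p of 0.05. The x axes differ in range. Genes are sorted by the neuroblast difference within each subunit, and most points lie to the right of 0 in both panels.

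The same question was asked of the chemoreceptor cells. In hypoxic glomus cells the 23 genes that rose are 41.1% of the members, and the 1 that fell is 1.79%. Of the 43 members with a mean over 8, 20 rose and 1 fell, where 375 of the 1761 genes at that level rose and 485 fell. The median difference of the members was 0.48, beside 0.17 for all probes and -0.13 for genes with a mean over 8. Rises numbered 13 among the 37 large-subunit genes and 10 among the 19 small-subunit genes. All 4 hypoxic values lay above all 4 normoxic values in 32 members and below them in 1, where 15.2% and 11.3% of all probes did so.

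Rps16 was at 9.56, 9.58, 9.14 and 8.89 in hypoxic glomus cells and at 7.36, 7.79, 7.80 and 7.67 in normoxic glomus cells. It had the largest rise of the 56 genes here, 1.64 ± 0.19, a fold of 3.11 (limma adjusted p = 2.83e-05, n = 4 and 4). Rps15 was at 9.65, 9.34, 9.20 and 9.28 in hypoxic glomus cells and at 7.91, 8.26, 7.73 and 7.86 in normoxic glomus cells. The hypoxic arrays lie close together and about 1 unit or more above the normoxic ones (1.43 ± 0.23, limma adjusted p = 0.000341). Rps29 was at 11.52, 11.12, 11.46 and 11.46 in hypoxic glomus cells and at 10.00, 10.40, 9.67 and 9.92 in normoxic glomus cells, again with no overlap (1.39 ± 0.21, limma adjusted p = 0.000183).

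Rpl10a was at 9.72, 9.50, 9.48 and 9.52 in hypoxic glomus cells and at 8.26, 8.58, 8.28 and 8.09 in normoxic glomus cells. Its rise was 1.25 ± 0.16 (limma adjusted p = 5.36e-05), with no overlap. Rpl39 was at 11.10, 10.89, 10.66 and 10.97 in hypoxic glomus cells and at 9.70, 10.01, 9.62 and 9.77 in normoxic glomus cells (1.13 ± 0.18, limma adjusted p = 0.000279). Rplp2 was at 10.67, 10.44, 10.47 and 10.58 in hypoxic glomus cells and at 9.71, 9.77, 9.38 and 9.49 in normoxic glomus cells. Its groups do not overlap, with a rise of 0.95 ± 0.15 (fold 1.94, limma adjusted p = 0.000275).

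Rpl36 rose by 1.09 ± 0.25 and Rpl13 by 0.81 ± 0.18, both with no overlap. Rpl27a rose by 1.21 ± 0.35 (limma adjusted p = 0.022), a call lost without hypoxic glomus replicate 4 or normoxic glomus replicate 1 or 2. Rps4y2 was at 6.51, 6.48, 6.34 and 5.06 in hypoxic glomus cells and at 5.05, 5.32, 4.92 and 4.59 in normoxic glomus cells. Replicate 4 of the hypoxic cells falls among the normoxic values, and the rise of 1.13 ± 0.34 (limma adjusted p = 0.0253) did not pass without hypoxic glomus replicate 1, 2 or 3, nor without normoxic glomus replicate 3 or 4. Rpl29 rose by 0.95 ± 0.29 (limma adjusted p = 0.0307), a call lost in 6 of the 16 fits that left out 1 array. Rps3 rose by 0.51 ± 0.16 (limma adjusted p = 0.0302), a call also lost in 6 of the 16. The other rises ran from 0.43 for Rpl27 to 0.88 for Rps27. Rplp0, the base of the stalk, differed by 0.49 ± 0.23 and did not pass (limma adjusted p = 0.144), except without hypoxic glomus replicate 2, where it was 0.76 (limma adjusted p = 0.0103).

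Rpl4 was the 1 gene that fell, at 9.99, 10.40, 9.96 and 9.87 in hypoxic glomus cells and at 10.31, 10.58, 11.12 and 11.16 in normoxic glomus cells. Replicate 2 of the hypoxic cells lies above replicate 1 of the normoxic cells, and the fall of 0.74 on the log2 scale (limma adjusted p = 0.0423) did not pass without hypoxic glomus replicate 1, 3 or 4, nor without normoxic glomus replicate 2, 3 or 4. Rpsa was at 10.85, 10.76, 11.28 and 10.59 in hypoxic glomus cells and at 11.52, 11.64, 11.48 and 11.49 in normoxic glomus cells. Its groups do not overlap, yet the difference of -0.66 ± 0.30 did not pass in the fit over all 16 arrays (limma adjusted p = 0.144). Without hypoxic neuroblast replicate 1, which enters only through the shared spread, the same difference passed, with an adjusted p of 0.0113 by limma, and it also passed with the glomus arrays alone (limma adjusted p = 0.0142) and with array weights (limma adjusted p = 0.014). Rps2 did not pass here (-0.29 ± 0.43, limma adjusted p = 0.667, 95% interval -1.21 to 0.62).

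The count of 23 rises in glomus cells depended on single arrays. It was 15, or 26.8% of the members, without hypoxic glomus replicate 1, without normoxic glomus replicate 3 or without normoxic glomus replicate 4. All probes fell in number in the same fits, to 6.89%, 6.34% and 6.44% that rose.

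Several members with known regulatory roles did not pass in either population. Rpl5 and Rpl11, which also bind the regulator Mdm2 when ribosome assembly is disturbed, differed by 0.27 ± 0.26 and 0.26 ± 0.15 in neuroblasts (limma adjusted p = 0.415 and 0.184). In glomus cells they differed by 0.21 ± 0.26 and -0.002 ± 0.153 (limma adjusted p = 0.606 and 0.993). The Rpl5 probe was dim, with a mean of 3.75 over the 16 arrays, which limits what its differences show. Rps6, the protein that the Rps6 kinases phosphorylate, differed by 0.23 ± 0.22 in neuroblasts and by 0.30 ± 0.22 in glomus cells. For Rps6 the 95% intervals, -0.24 to 0.71 in neuroblasts and -0.17 to 0.78 in glomus cells, still hold a rise of the median size. In all, 25 of the 56 genes passed in neither population.

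The hypoxia comparisons in neuroblasts and in glomus cells share no arrays, and their differences over the 56 genes can be set side by side. The labels do not say whether arrays of the same oxygen condition share rats across the populations. In both comparisons any batch cannot be told apart from oxygen, so they are not shown to be independent. Of the genes that rose, 21 did so in both, which is 80.8% of the rises in neuroblasts and 91.3% of the rises in glomus cells. They were Rpl10a, Rpl13, Rpl17, Rpl23a, Rpl27, Rpl27a, Rpl29, Rpl34, Rpl36, Rpl39, Rpl41, Rplp2, Rps3, Rps4y2, Rps13, Rps15, Rps16, Rps20, Rps27, Rps28 and Rps29. Rpl7, Rpl18, Rpl26, Rpl35a and Rps9 passed in neuroblasts and not in glomus cells, and Rpl24 and Rps19 in glomus cells and not in neuroblasts. As given above, Rpl7, Rpl17, Rpl26 and Rpl35a did not pass in neuroblasts without hypoxic neuroblast replicate 1, and Rps19 did. Rpl4 passed as a fall in both. The sign was the same in 52 of the 56. The Pearson correlation of the differences was 0.91 (Spearman 0.86) over 56 genes, which share the probe on each side and are not independent replicates. The shared rises, signs and correlation were not computed over all probes, so the agreement is not shown to be particular to these genes.

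**Figure D3:**
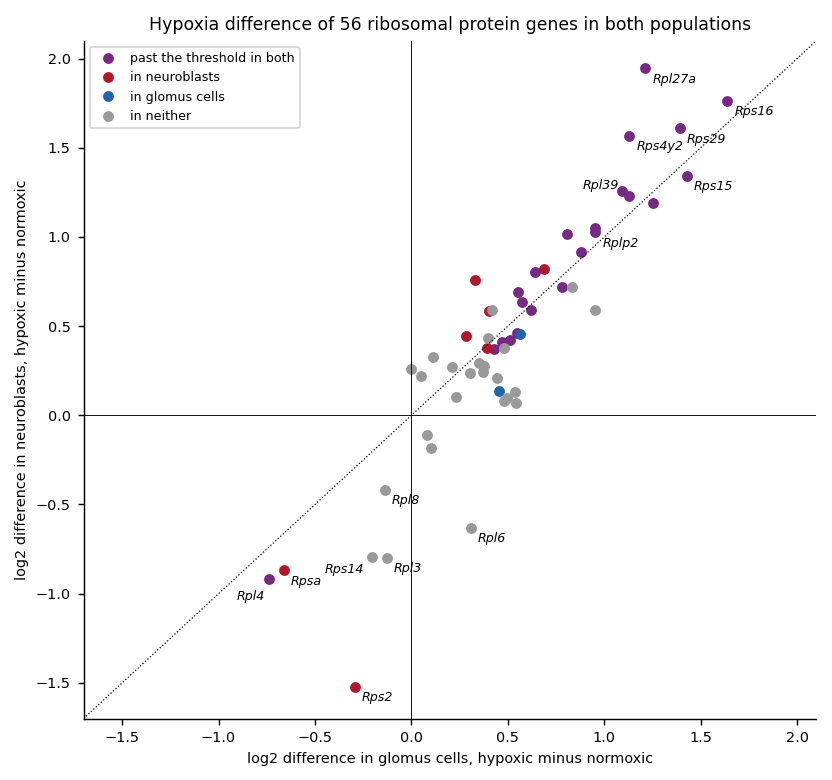
Hypoxia difference (log2) of each of the 56 genes in glomus cells, on the x axis, and in neuroblasts, on the y axis. The dotted line marks equal differences, and colours show where a gene passed an adjusted p of 0.05. Most genes lie along the line, and Rps2, Rps14 and Rpl6 lie below it, with hypoxic neuroblast replicate 1 as their lowest array.

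Whether the hypoxia difference itself differed between the populations was tested as an interaction, and 0 of the 56 genes passed by limma, where 0.0789% of all probes did. At an unadjusted p under 0.05 the count was also 0, a threshold at which the share of all probes was not counted. The largest was Rps2, with -1.23 ± 0.62 for neuroblasts minus glomus cells (limma adjusted p = 0.769). For Rps16 the interaction was 0.12 ± 0.27, with a 95% interval of -0.44 to 0.69, and for Rplp2 it was 0.07 ± 0.21, with an interval of -0.37 to 0.52. Across the members the standard error of this term ran up to 0.76, and for Rps2 the 95% interval was -2.52 to 0.07. Genes such as Rpl26 or Rps19, which passed in 1 population, are thus not shown to differ between them.

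None of the 56 genes differed past the threshold between neuroblasts and glomus cells. These comparisons use the same arrays as the hypoxia comparisons above. In normoxia 0 of the 56 genes passed by limma, 0 had an unadjusted p under 0.05, and the median difference, neuroblasts minus glomus cells, was 0.01, where 1.82% of all probes passed. In hypoxia the counts were again 0 and 0 with a median of -0.02, where 0.283% of all probes passed. These shares of all probes are at the adjusted threshold, and those at the unadjusted one were not counted. The members' differences ran between -0.39 and 0.49 in normoxia and between -0.86 and 0.36 in hypoxia. Rps16 averaged 7.70 ± 0.15 in normoxic neuroblasts and 7.66 ± 0.20 in normoxic glomus cells (SD, n = 4 each), a difference of 0.04 ± 0.19 with a 95% interval of -0.36 to 0.44. Rplp2 averaged 9.57 ± 0.03 in normoxic neuroblasts and 9.59 ± 0.18 in normoxic glomus cells, a difference of -0.02 ± 0.15 with an interval of -0.33 to 0.30.

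The largest normoxic difference was that of Rpl10, a protein that joins the large subunit late, at 0.49 ± 0.27 (limma adjusted p = 0.677). Rplp0 was the 1 member with no overlap between the normoxic groups, at 6.81, 6.96, 7.16 and 6.92 in normoxic neuroblasts and at 6.41, 6.70, 6.69 and 6.50 in normoxic glomus cells. This difference of 0.39 ± 0.23 did not pass (limma adjusted p = 0.717), and 3.37% of all probes had neuroblasts wholly above glomus cells. In hypoxia the largest were Rpl6, at -0.86 ± 0.53, and Rps2, at -0.84 ± 0.43, both with hypoxic neuroblast replicate 1 as the lowest array.

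As a group mean, the 56 genes averaged 9.45 to 9.87 in hypoxic and 9.21 to 9.35 in normoxic neuroblasts, and 9.71 to 9.84 in hypoxic and 9.19 to 9.42 in normoxic glomus cells. On the deposited scale every hypoxic array lay above every normoxic one in both populations, and the normoxic groups of the populations overlap. Taken relative to each array's median over all probes, the group mean was 4.51 to 5.11 in hypoxic and 4.61 to 4.95 in normoxic neuroblasts, which overlap, with hypoxic replicate 1 below every normoxic array. In glomus cells it was 4.98 to 5.13 in hypoxia and 4.55 to 4.90 in normoxia, still with no overlap. The hypoxic neuroblast arrays spread over a wider range than those of any other group.

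A further 30 probes measured 18 of the 56 genes besides the chosen ones. In neuroblasts 29 of these 30 had the same sign as the chosen probe and 26 the same call, and in glomus cells 30 had the same sign and 22 the same call. Each change of call was a further probe that passed where the chosen one did not. Rpl39 had 5 further probes, which rose by 1.21 to 1.35 in neuroblasts and by 1.06 to 1.71 in glomus cells, and 2 of those probes have identical values in all 16 arrays. The second probe of Rplp2 rose by 0.94 ± 0.17 in neuroblasts and by 0.96 ± 0.17 in glomus cells. Rpl35a, which missed the threshold in glomus cells at 0.39 ± 0.14, had further probes at 0.36, 0.62 and 0.95 there. Rpl6 differed by -0.30 ± 0.27 in neuroblasts on its second probe, and Rps14 by -0.56 ± 0.24, both not past the threshold.

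Another 13 ribosomal protein genes were measured only on probes that name several genes, so their signal cannot be given to 1 gene. Of these, 8 rose in neuroblasts and 7 in glomus cells, with 0 falls. Rpl22, Rpl31, Rpl36a, Rpl38, Rps15a, Rps25 and Rps26 rose in both and Rps18 in neuroblasts. Ribosomal protein genes have many near-identical copies in the rat genome, and a probe can take up RNA from more than 1 of them. Of 95 genes with an l form of these symbols, 51 (53.7%) rose and 1 fell in neuroblasts, and 44 (46.3%) rose and 1 fell in glomus cells, with medians of 0.68 and 0.70. The gene that fell in both was Rpl7l1, by 1.92 in neuroblasts and by 2.44 in glomus cells on the log2 scale. Of 43 pseudogene symbols (ps after a hyphen), 14 (32.6%) rose and 1 fell in neuroblasts, and 10 (23.3%) rose and 0 fell in glomus cells. Over all probes 18.4% rose and 13.7% fell in neuroblasts, and 9.37% rose and 9.50% fell in glomus cells.

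Fau, whose product is cleaved to give a small-subunit protein under another symbol, rose by 1.08 ± 0.22 in neuroblasts (limma adjusted p = 0.00142) and by 1.10 ± 0.22 in glomus cells (limma adjusted p = 0.0021). Rack1, a scaffold protein bound to the small subunit, had hypoxia differences of -0.68 ± 0.28 in neuroblasts and -0.11 ± 0.28 in glomus cells, which did not pass.

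Genes that build ribosomes were described by the same counts. Of 33 measured ribosome biogenesis genes, 5 (15.2%) rose and 7 (21.2%) fell in neuroblasts, where 18.4% of all probes rose and 13.7% fell. In glomus cells 6 (18.2%) rose and 3 (9.09%) fell, where 9.37% and 9.50% of all probes did. Their medians were 0.01 in neuroblasts and 0.17 in glomus cells, beside 0.25 and 0.17 over all probes. Nop10, a small protein of the particles that modify ribosomal RNA, rose by 1.70 ± 0.19 in neuroblasts and 1.49 ± 0.19 in glomus cells. Ebna1bp2, a nucleolar protein of large-subunit assembly, rose by 1.39 ± 0.19 in neuroblasts and 1.09 ± 0.19 in glomus cells, and Gnl3l fell by 0.59 in neuroblasts and by 0.84 in glomus cells on the log2 scale. Of 13 genes for RNA polymerase I and its factors, which transcribe ribosomal RNA, 1 (7.69%) rose and 5 (38.5%) fell in neuroblasts and 2 (15.4%) rose and 4 (30.8%) fell in glomus cells. Polr1a and Polr1b, its largest subunits, fell by 1.28 and 0.89 in neuroblasts and by 0.91 and 0.80 in glomus cells.

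Of 18 measured translation factors and other genes with TOP messenger RNAs, 3 (16.7%) rose and 5 (27.8%) fell in neuroblasts and 3 (16.7%) rose and 4 (22.2%) fell in glomus cells, beside the shares of all probes given above. Naca, which binds new proteins as they leave the ribosome, rose by 0.69 ± 0.15 in neuroblasts and 0.67 ± 0.15 in glomus cells, and Nap1l1 rose in both too. Eef1a1, which brings transfer RNA to the ribosome, averaged 10.88 in hypoxic and 12.27 in normoxic neuroblasts, a fall of 1.39 on the log2 scale (limma adjusted p = 6.06e-06). In glomus cells it averaged 10.92 in hypoxia and 12.11 in normoxia (limma adjusted p = 5.99e-05). Eif4b, an initiation factor, fell by 1.12 in neuroblasts and by 1.06 in glomus cells. The members with and without a pyrimidine run at the annotated start had medians of 0.38 and 0.38 in neuroblasts and 0.52 and 0.35 in glomus cells. Rises numbered 7 of 16 with the run and 13 of 30 without it in neuroblasts, and 6 of 16 and 13 of 30 in glomus cells. With the first C allowed within 5 bases of the start, medians with and without it were 0.436 and 0.252 in neuroblasts. In glomus cells they were 0.54 and 0.305. Rises by that form numbered 13 of 26 with it and 7 of 20 without it in neuroblasts, and 12 of 26 and 7 of 20 in glomus cells. The part of the tract in the rises was not tested.

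Of 18 measured genes of mTOR signalling and translation control, 1 rose and 8 (44.4%) fell in neuroblasts. There 13.7% of all probes, 18.9% of all genes at 1 probe each and 36.6% of the genes with a mean over 8 fell. In glomus cells 2 rose and 6 (33.3%) fell, where 9.50% of all probes, 13.5% of all genes and 27.5% of the genes with a mean over 8 fell. Not all of the list is at that level, as the means of Mtor show. Mtor itself averaged 6.01 in hypoxic and 7.89 in normoxic neuroblasts (-1.88 ± 0.27, limma adjusted p = 5.31e-05), and 6.51 in hypoxic and 7.93 in normoxic glomus cells (-1.43 ± 0.27, limma adjusted p = 0.00111). Larp1, which binds the TOP tract, fell by 1.41 in neuroblasts and by 1.12 in glomus cells. Tsc2, an inhibitor of mTOR, fell by 1.43 in neuroblasts and by 1.07 in glomus cells. Of the 8 Rps6 kinase genes, 5 fell and 0 rose in each population.

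**Figure D4:**
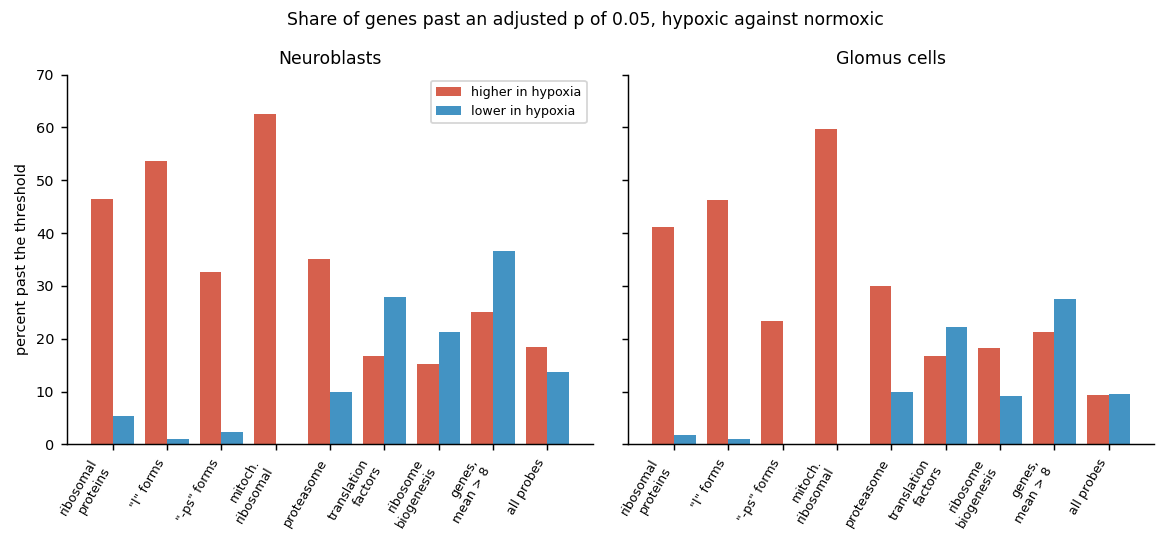
Percent of genes in each list that were higher (red) or lower (blue) in hypoxia at an adjusted p of 0.05, in neuroblasts (left) and glomus cells (right), beside genes with a mean signal over 8 and all probes. For the ribosomal proteins the red bars stand at 46.4% and 41.1% and the blue bars at 5.36% and 1.79%.

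Other large protein complexes can be set beside the cytosolic ribosome. All 72 mitochondrial ribosomal protein genes were measured, and 45 rose in neuroblasts and 43 in glomus cells with 0 falls, with medians of 0.92 and 0.84. Of 40 proteasome subunit genes, 14 rose and 4 fell in neuroblasts and 12 rose and 4 fell in glomus cells.

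Other measures moved with the oxygen condition beside these genes. The 15 measured cell cycle genes averaged 6.77 to 7.39 in hypoxic and 5.16 to 5.33 in normoxic neuroblasts, and 6.28 to 6.80 in hypoxic and 5.28 to 5.55 in normoxic glomus cells. Of these genes, 12 rose in neuroblasts and 7 in glomus cells. The 12 macrophage markers averaged 4.62 to 5.10 in hypoxic and 4.14 to 4.65 in normoxic neuroblasts, and 6.12 to 6.72 in hypoxic and 5.03 to 6.67 in normoxic glomus cells. Of them, 0 rose in neuroblasts and 4 did in glomus cells. The 8 measured endothelial markers averaged 5.04 to 5.19 in hypoxic and 4.08 to 4.65 in normoxic neuroblasts, and 5.82 to 6.68 in hypoxic and 5.01 to 6.47 in normoxic glomus cells, and 2 rose in each population. The 6 measured markers of type II and glial cells averaged 5.83 to 6.29 in hypoxic and 4.96 to 5.62 in normoxic neuroblasts, with no overlap, and 4.82 to 5.44 in hypoxic and 4.13 to 4.91 in normoxic glomus cells. Of these, S100b rose in both populations and Gfap in neuroblasts. The 7 T and NK cell markers averaged 3.62 to 3.92 in hypoxic and 3.21 to 3.28 in normoxic neuroblasts, and 3.48 to 4.00 in hypoxic and 3.31 to 3.39 in normoxic glomus cells, with no overlap in either, and 2 rose in neuroblasts and 1 in glomus cells. The means of the pericyte and smooth muscle, fibroblast and erythroid markers overlapped between the oxygen conditions in both populations. The part of all these marker lists in the members' rises was not tested.

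The length of the gene moved with the result over all genes. The members are short, with a median span of 3128.5 bases in GRCr8 (54 genes with an entry) against 17232 bases for all genes. Among all genes of up to 2000 bases 23.7% rose and 1.62% fell in neuroblasts and 11.2% rose and 0.673% fell in glomus cells. Among genes over 64000 bases 8.45% rose and 34.3% fell in neuroblasts and 4.18% rose and 23.4% fell in glomus cells. Most members, 31, span 2000 to 4000 bases, and 14 of these rose in neuroblasts and 10 in glomus cells, where 28.7% and 14.1% of all genes of that span rose. The median difference of these 31 was 0.37 in neuroblasts and 0.43 in glomus cells, beside 0.38 and 0.26 for all genes of that span. Of 11 members of 4000 to 8000 bases, 3 rose in neuroblasts and 5 in glomus cells, where 22.8% and 13.4% of all genes did. Of 9 members of up to 2000 bases, 7 rose in each population. The part of gene length in the members' rises was not tested.

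The scale of the arrays bears on the counts as well, since the median difference over all probes was 0.25 in neuroblasts and 0.17 in glomus cells. Relative to these shifts the members' medians stood 0.17 and 0.31 higher. With each array centred on its own median, 13 members rose and 4 fell in neuroblasts, and 11 rose and 1 fell in glomus cells. Over all probes 1826 then rose and 5464 fell in neuroblasts, against 5596 and 4159 on the deposited scale. In glomus cells 1370 rose and 3783 fell over all probes, against 2852 and 2892 on the deposited scale. After quantile normalization 18 members rose and 4 fell in neuroblasts and 17 rose and 2 fell in glomus cells. Over all probes 10.8% then rose and 12.2% fell in neuroblasts, and 7.28% rose and 8.18% fell in glomus cells. Among the named calls, centring ended those of Rps3 and Rpl29 in both populations and those of Rpl27a and Rps4y2 in glomus cells. Quantile normalization ended those of Rps3 in both populations and of Rps4y2 in glomus cells, and there the difference of Rpsa passed as a fall (limma adjusted p = 0.0424).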

How the data were processed

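The authors deposited 1 table of log2 signals per probe for 16 arrays, with values from 0.87 to 13.33 given to 2 decimals. The log base was inferred from that range. Per the labels' protocols, cDNA was labelled with biotin from 500 pg of total RNA and hybridised to Affymetrix arrays. Transcriptome Analysis Console is named in the submitters' processing notes. For background correction, normalization and build, no source used here gives a method. Gene names come from the platform annotation.

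All 30429 probes were fitted by group means with limma 3.58.1 (lmFit, eBayes; 12 residual and 5.244 prior degrees of freedom) in R 4.3.3, with no further normalization or filter. Tests were two-sided, and p-values were adjusted by Benjamini-Hochberg over all probes in each of 5 comparisons. The fit was tested on simulated data. The number of arrays limits the precision. Groups follow the sample titles.

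Named genes were Rps16 and Rplp2, up to 12 of the largest called rises and falls, the stalk genes, Rpl5, Rpl11, Rps6, Rps3 and Rpsa, the smallest p-values of the population comparisons, and up to 4 genes of each pathway list by their p in glomus cells. Rpl6 and Rps14 in the hypoxia comparisons, the Rpl35a probes, and the genes whose call changed without hypoxic neuroblast replicate 1 were named after their values were seen. The members and lists were chosen with earlier results of these data known. Alternatives were 2 other scalings, a filter on the dimmest 25% of probes, a variance trend, array weights, fits of the compared arrays alone, the replicate block, probe means, an adjusted p of 0.01 and leaving out each array.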

Additional observations from a re-analysis of the deposited data

Results flagged for a closer look

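Of 104 sets of 4 arrays examined, 12 held an array whose gap to the nearest of the others exceeded Dixon's 95% critical value for 4 samples, as a share of the group's range. Chance flags about 1 set in 20 where sets are chosen without regard to their values. Here the sets share arrays, and Rpl6, Rps14 and Rps2 were named through comparisons that hold hypoxic neuroblast replicate 1. The count of 12 can thus not be judged by that rate. In hypoxic neuroblasts replicate 1 was the lowest for Rpl6, at 7.11 against 10.45 to 10.60 in the other arrays, for Rps2, at 7.92 against 10.61 to 10.74, for Rps14, at 9.62 against 11.40 to 11.51, and for Rpsa, at 9.16 against 10.74 to 10.95. The same array was the highest for Rps29, at 11.86 against 11.13 to 11.22. In hypoxic glomus cells Rpl10a was at 9.72 in replicate 1 against 9.48 to 9.52, Rps29 at 11.12 in replicate 2 against 11.46 to 11.52, and Rps4y2 at 5.06 in replicate 4 against 6.34 to 6.51. In normoxic neuroblasts Rpl4 was at 11.62 in replicate 3 against 10.74 to 10.86, and Rpl36 at 7.51 in replicate 4 against 7.74 to 7.78. In normoxic glomus cells Rps6 was at 6.33 in replicate 1 against 5.67 to 5.75, and the mean of the 56 ribosomal protein genes was 9.423 in replicate 2 against 9.192 to 9.21.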

How the results depend on the processing

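Counts of members that passed in the 2 hypoxia comparisons depended on the setting, and the population and interaction counts stayed at 0 in every fit. In neuroblasts 29 members passed, 26 higher and 3 lower. The counts were 17 (16 and 1) at an adjusted p of 0.01, 17 (13 higher) after centring, 18 (17 and 1) with the compared arrays alone and 52 (49 higher) over every single-gene probe. Leaving out 1 array gave 20 to 28, with 18 to 26 higher and 2 to 5 lower. In those fits 12.6% to 21.5% of all probes rose and 11.6% to 14.1% fell. In glomus cells 24 passed, 23 higher and 1 lower. The counts were 14 (14 and 0) at 0.01, 12 (11 higher) after centring and 49 (48 higher) over every probe, and 2 were lower with array weights, with the compared arrays alone or after quantile normalization. Leaving out 1 array gave 15 to 30, with 15 to 28 higher and 0 to 2 lower, where 6.34% to 12.6% of all probes rose and 7.12% to 11.2% fell. Shares of all probes at 0.01, with the compared arrays alone, with array weights or with the replicate block are not given. Counting every probe was chosen after seeing the data and counts more features.

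The replicate numbers were not taken as pairs in the main fit. Correlations of same-numbered arrays ran from -0.023 to 0.205 within the hypoxia comparisons, whose groups come from different rats, so these values cannot decide on pairs. Within the population comparisons, where neuroblasts and glomus cells could come from the same rats, they ran from -0.105 to 0.191. The labels do not say whether rats were shared there, and low correlations do not exclude it. With the replicate block 25 members passed in neuroblasts and 26 in glomus cells, and it changed no named call.

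Signs turned only in values that had not passed. Centring gave -0.02 for Rpl11, -0.01 for Rpl5, -0.185 for Rplp0 and -0.048 for Rps6 in neuroblasts, -0.005 for Rpl5 in glomus cells and -0.018 for Rplp2 between the populations in hypoxia. Quantile normalization gave -0.071 for Rpl5 in neuroblasts, -0.024 for Rpl5 and 0.1 for Rpl11 in glomus cells, and 0.062 for Rplp2 between the normoxic populations. Array weights gave 0.021 for Rplp2 and -0.007 for Rps16 there. Leaving out 1 array gave -0.052 to 0.095 for Rpl11 in glomus cells, -0.028 to 0.142 for the Rplp2 and -0.009 to 0.225 for the Rps16 interaction, -0.043 to 0.12 for Rplp2 between hypoxic populations, and -0.084 to 0.046 for Rplp2 and -0.056 to 0.091 for Rps16 between normoxic ones. The cause was not tested. Probes near the floor of the array, such as those of Rps27, Rpl5 and Rps9, limit what their differences show.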
